A study of Mus musculus with 22 samples.

Results

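The Xlr3, Xlr4 and Xlr5 genes are 9 protein-coding members of the X-linked lymphocyte-regulated family of the mouse: Xlr3a, Xlr3b, Xlr3c, Xlr4a, Xlr4b, Xlr4c, Xlr5a, Xlr5b and Xlr5c. They were found by matching the gene identifiers of the deposited count tables to GENCODE M21 symbols, and are 9 of the 47729 genes in the tables. Their counts were read in all 22 libraries of mouse embryonic stem (ES) cells. The study asked how the number of copies of Dux, a double homeobox transcription factor gene that activates genes of the 2-cell embryo, affects such genes with and without loss of DNA methylation.

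The untreated set had 10 libraries: 3 of E14, a mouse ES cell line (titled E14-chen), 3 of Dux-KO clones 15, 22 and 52, and 4 of Dux (n=1) clones 17, 22, 31 and 40 (titled Duxnto1). Both edited kinds were made with CRISPR-Cas9, and their names are read as no Dux gene and 1 Dux copy. The treated set had 12 libraries, 2 each of WT, KO22 (titled Dux-KO22) and N22 (titled Dux-N22) with DMSO, the solvent control, and with GSK-3484862 (GSK below), which the submitters describe as a degrader of the DNA methyltransferase DNMT1. Exposure lasted 3 days. The dose is given as 1 uM in one label and as 2 uM in another. KO22 and N22 are each taken to be a single clone, and genotype therefore cannot be told apart from clone in the treated set. The labels do not say whether libraries of a group came from separate cultures, and p-values then measure only the spread between these libraries, which may be technical. All cells were grown in serum with LIF.

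The family is named after its first member, found as an X-linked gene regulated in lymphocytes, and its proteins are related to SYCP3, a component of the axis of meiotic chromosomes. Xlr3 protein is known from the X and Y chromatin of spermatocytes, and Xlr3b, Xlr4b and Xlr4c are known as imprinted genes of the mouse brain. DNMT1 copies CpG methylation to the new strand after replication, and many genes of the germline and of the X chromosome are kept silent by methylation of their promoters in other cells.

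In GRCm38 the 9 genes lay within X:73074345-73292976, a stretch of 218.6 kb, 3 on the plus strand and 6 on the minus strand. Xlr4a (73074345 to 73082478) had the lowest coordinates, followed by Xlr3a (73086293 to 73097095), Xlr5a, Xlr5b (73148796 to 73158872), Xlr3b (73192207 to 73202930), Xlr4b (73214333 to 73222453), Xlr4c (73233688 to 73243130), Xlr3c (73254540 to 73265390) and Xlr5c (73282896 to 73292976). The annotated Xlr5a model runs from 73107635 to 73292976 and shares 101 exon bases with Xlr5c, so a read there could be assigned to neither. Longest transcripts within a subfamily were 98.6% to 99.4% identical. In windows of 100 bases, from 18.7% (Xlr5b) to 75.6% (Xlr3a) of each gene's transcript windows occurred in no transcript of another annotated gene. Reads that map to several places were not counted, and the value of a single copy is therefore less certain than the sum of its subfamily. The sum does not bring back the reads that were dropped.

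Promoter sequences were taken from RefSeq (GRCm38.p6), where all 9 members had an entry of 300 bases. The 4 stretches that follow lie just upstream of the starts RefSeq gives and show how alike the copies are. For Xlr5a, Xlr5b and Xlr5c these starts lie inside the gene models of the count tables. CpG dinucleotides, the bases that DNMT1 keeps methylated, are in capitals.
Xlr3a, Xlr3b and Xlr3c (identical): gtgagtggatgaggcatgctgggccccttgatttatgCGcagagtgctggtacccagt
Xlr4a: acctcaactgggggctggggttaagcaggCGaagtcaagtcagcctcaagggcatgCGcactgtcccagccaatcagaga
Xlr4b and Xlr4c (identical): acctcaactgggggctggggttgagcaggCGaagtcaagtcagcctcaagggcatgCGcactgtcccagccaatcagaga
Xlr5a and Xlr5b (identical): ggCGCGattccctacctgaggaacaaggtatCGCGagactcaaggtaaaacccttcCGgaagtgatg
The Xlr3a stretch is X:73097098-73097155 on the minus strand, the Xlr4a stretch X:73082541-73082620 on the minus strand, the Xlr4b stretch X:73214227-73214306 on the plus strand and the Xlr5a stretch X:73117705-73117771 on the minus strand. Xlr4a differed from Xlr4b and Xlr4c in 1 of 80 bases.

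Over the whole window of 300 bases, the Xlr3 and Xlr4 promoters held 5 to 8 CpG, near the median of 7 over 32851 mouse promoters. Xlr5a and Xlr5b held 16 each, at the 67th percentile. The Xlr5c window held 1 CpG. On either strand, CCAAT was present in 8 of 9 windows (all but Xlr5c), against 37.4% of all promoters. TATAAA, the core of the TATA box, was in 0 of 9 windows and in 13.6% of all promoters. The E-box CACGTG was also in 0 of 9, against 7.15%. So was GCGGGA, against 20%. A Dux-type motif had 0 matches in the 9 windows and was in 0.0335% of all promoters. No match says only that these letters are not in the windows. Apart from Xlr5c, the windows of a subfamily share the near-identical stretches above. The 9 are therefore not independent sequences, and these counts are given as a description.

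Libraries held 15803194 to 19427794 counts. The annotated Dux gene, listed as Duxf3, was at 0 counts in the 4 KO22 libraries, while GSK took it from 2 to 37 summed counts in WT and from 3 to 24 in N22. The untreated libraries had 0 to 3, except for 5 counts in the one labelled Dux-KO clone 22, which goes against its label. Summed CPM (counts per 1000000 counts of the library) of the 5 ES cell markers was 3349 to 3812 in the untreated set, 3406 to 3756 with DMSO and 2919 to 3096 with GSK. All 5 (Pou5f1, Nanog, Sox2, Zfp42 and Esrrb) were detected in every group.

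In untreated cells the family was close to silent. Summed over the 9 genes, E14 had 0.969 ± 0.263 CPM (SD, n = 3), the Dux-KO libraries 0.692 ± 0.268 (n = 3) and the Dux (n=1) clones 0.927 ± 0.395 (n = 4). The 3 ranges overlapped. Xlr3 genes held 41 of the 52 family counts in E14, 38 of 39 in Dux-KO and 57 of 64 in Dux (n=1).

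Xlr3c had 13, 4 and 12 counts in the E14 libraries, 5, 8 and 9 in Dux-KO clone 15, the library labelled clone 22 and clone 52, and 6, 4, 4 and 4 in the Dux (n=1) clones. Xlr3a had 0 to 7 counts in the same libraries, and the groups overlapped for both genes. Xlr3b had 2, 2 and 3 counts in E14 and 3, 7 and 0 in the Dux-KO libraries. In the Dux (n=1) clones it had 3, 6, 10 and 5, or 0.182 to 0.633 CPM against 0.113 to 0.164 in E14. These ranges do not overlap, but E14 library 3 and clone 17 both had 3 counts. That gap comes from their totals of 18297387 and 16520825 counts. The share of all genes separated in this way was not counted. Xlr4a, Xlr4b and Xlr4c had 0 to 3 counts in every untreated library, Xlr5c had 0 to 2, and Xlr5a and Xlr5b had 0 in all 10, which allows at most 3 counts a library.

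At this depth differences between the untreated groups were not detectable. 0 of 9 members passed the filter on low counts in that set, so edgeR's quasi-likelihood test made no call on them. Among the 14796 genes tested, 20.4% were called in Dux-KO against E14, 9.16% in Dux (n=1) against E14 and 0% between the edited kinds, at a Benjamini-Hochberg adjusted p below 0.05. Without the filter, 7 members were fitted and 0 were called in the 3 comparisons. The smallest adjusted p was 0.225, in Dux-KO against E14, where Xlr4b and Xlr4c had an unadjusted p below 0.05 with 5 and 4 counts over E14 and 0 over Dux-KO. DESeq2 also called 0, with 0 at an unadjusted p below 0.05. Against E14, however, it gave an adjusted p to only 2 of the 7 members in Dux-KO and 1 in Dux (n=1). The rest could not be called there. Of 26623 genes fitted, DESeq2 called 1838 higher and 1896 lower in Dux-KO against E14, and the fit without the filter 1184 and 1350. In Dux (n=1) against E14 these were 1277 and 1114, and 658 and 496.

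**Figure D1:**
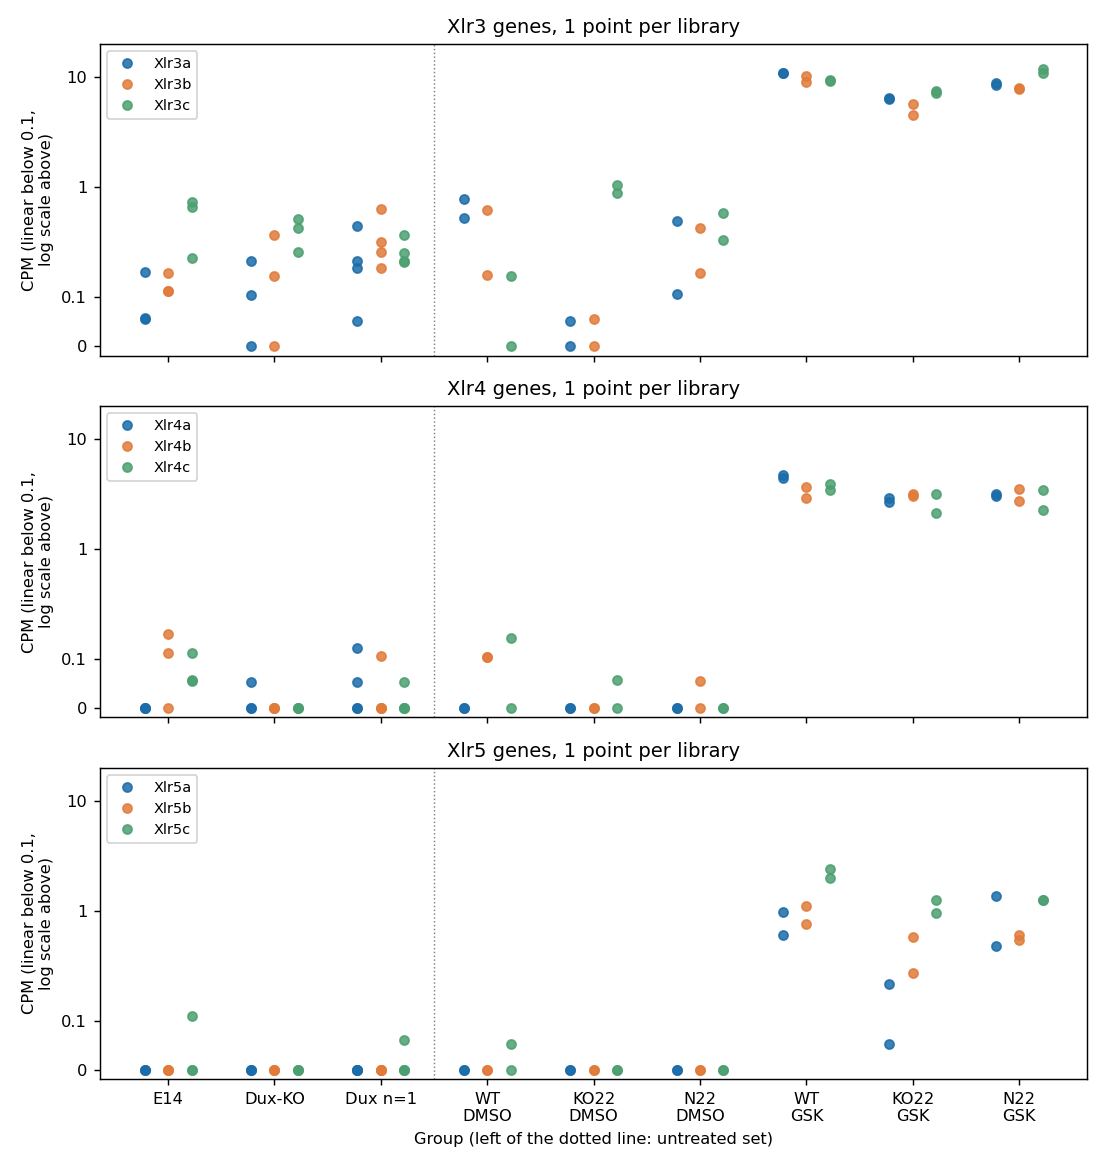
CPM of each gene (y axis, linear below 0.1 and logarithmic above) by group (x axis), 1 point per library, in panels for Xlr3, Xlr4 and Xlr5; the dotted line separates the untreated from the treated set. Every gene is higher in both GSK libraries of each genotype than in its DMSO libraries, and Xlr5a and Xlr5b are at 0 in all 16 libraries without GSK.

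With GSK the summed family rose in all 3 genotypes. The 2 WT DMSO libraries held 15 and 36 family counts, and the GSK groups held 1656 counts in WT, 1086 in KO22 and 1390 in N22. WT went from 1.32 ± 0.754 to 45.2 ± 0.822 CPM (SD, n = 2 here and in the following groups), a ratio of 34.3 (95% counting interval 25.8 to 46.0). KO22 went from 1.04 ± 0.06 to 29.0 ± 1.70 CPM, a ratio of 27.7 (20.1 to 39.1), and N22 from 1.07 ± 0.0499 to 39.6 ± 0.359 CPM, a ratio of 36.9 (27.0 to 51.9). GSK and DMSO libraries did not overlap in any genotype. The share of all genes separated in this way was not counted, here or below. Without the library WT DMSO 2 the WT ratio was 57.5. These intervals, like all counting intervals here, cover counting error only.

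The fit of the 12 treated libraries tested 16641 genes, and 9 of 9 members passed its filter on low counts, 10 or more in about 2 libraries. They could do so through the GSK groups alone. Xlr3c also reached it in both KO22 DMSO libraries, and Xlr3a, with 10 and 15 counts in the WT DMSO libraries, lay at its edge. A gene that passes only where it is high had to differ. The number of members called in these responses and their adjusted p, here and below, are therefore given as a description. In WT 9 members were called higher, where 28.7% of all tested genes were, in KO22 8 of 9 (24.8%), and in N22 9 of 9 (26.9%), and 0 were called lower in each (28.1%, 21.2% and 26% of all genes). The exception was Xlr5a in KO22. In fits of the compared groups alone Xlr5a and Xlr5b did not pass the filter in KO22 and N22, which left 7 members called in each. Over all tested genes the median log2 difference was 0.00 in each response.

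**Figure D2:**
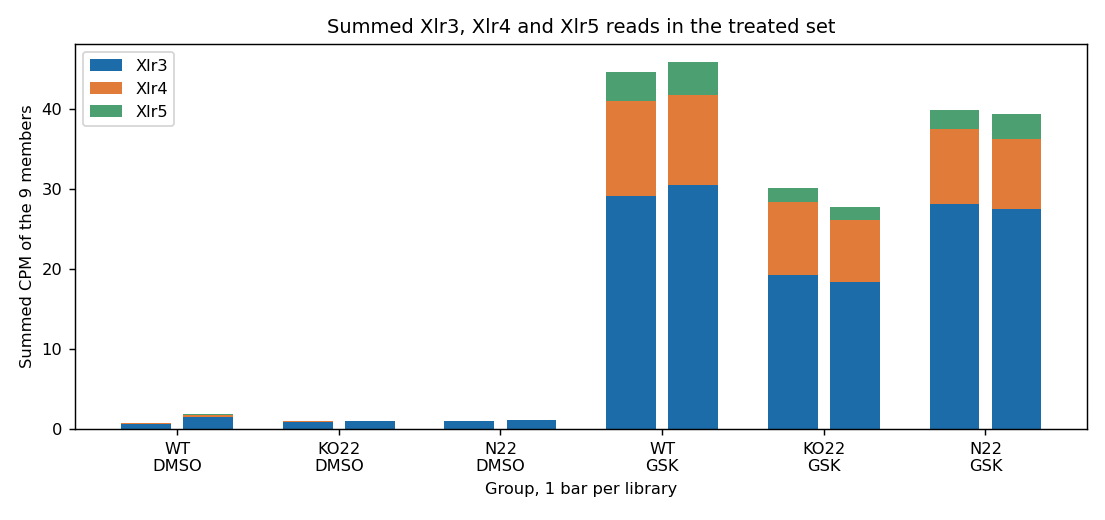
Summed CPM of the 9 genes (y axis) in each treated library (1 bar per library, 2 per group on the x axis), stacked by subfamily. The 6 DMSO bars are all below 2 CPM; with GSK the groups average 45.2 (WT), 29.0 (KO22) and 39.6 CPM (N22), and Xlr3 is the largest part of each bar.

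The Xlr3 genes, the copies known from spermatocyte sex chromatin, carried most of the family's counts. In WT, Xlr3a had 10 and 15 counts in the DMSO libraries and 198 and 199 in the GSK libraries, a log2 difference of 3.99 ± 0.26 (SE; edgeR adjusted p = 2.29e-21). In KO22 it had 0 and 1, then 118 and 120, a ratio of 237 (42.0 to 9381; adjusted p = 3.51e-21). In N22 it had 9 and 2, then 141 and 163, a log2 difference of 4.79 ± 0.32 (adjusted p = 3.23e-21). Each GSK library held 118 or more counts of it, and no DMSO library held more than 15.

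Xlr3b, an imprinted gene in brain, went from 3 and 12 to 165 and 189 counts in WT, by 4.55 ± 0.31 on the log2 scale (adjusted p = 1.13e-20). In KO22 it went from 1 and 0 to 104 and 87 (ratio 190, 33.7 to 7536; adjusted p = 1.79e-18), and in N22 from 3 and 8 to 133 and 142 (log2 difference 4.65 ± 0.34; adjusted p = 2.92e-19). No DMSO library reached the level of any GSK library.

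Xlr3c showed another starting point in KO22. In WT it went from 0 and 3 counts to 167 and 174, a ratio of 120 (40.5 to 582; adjusted p = 1.96e-24). In KO22 it had 16 and 20, then 133 and 143, a log2 difference of 2.91 ± 0.25 (adjusted p = 4.79e-16). In N22 it had 6 and 11, then 198 and 199, by 4.57 ± 0.27 (adjusted p = 3.05e-23). It was the only Xlr3 gene with more than 1 count in a KO22 DMSO library.

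The Xlr4 genes were nearly absent with DMSO. Xlr4a had 0 counts in all 6 DMSO libraries and 86 and 81 with GSK in WT, 54 and 51 in KO22 and 53 and 55 in N22, at least 58.5-fold, 34.8-fold and 38.2-fold higher against a floor of 3 counts over the group (adjusted p = 9.18e-17, 1.36e-13 and 4.13e-14). Xlr4b, imprinted in brain like Xlr3b, had 2 and 2 counts in WT, 0 and 0 in KO22 and 1 and 0 in N22, then 66 and 54, 58 and 58, and 46 and 64. Its ratio was 31.5 (12 to 118) in WT, at least 38.4 in KO22 and 117 (20.5 to 4654) in N22.

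Xlr4c had 0 and 3 counts in WT, 1 and 0 in KO22 and 0 and 0 in N22 with DMSO, then 63 and 71, 58 and 40, and 58 and 41. Its ratio was 47.0 (15.7 to 231) in WT, 97.4 (17.1 to 3886) in KO22 and at least 35.0 in N22. The adjusted p of Xlr4b and Xlr4c in the 3 responses lay between 4.76e-14 and 2.01e-11. Summed over the subfamily, Xlr4 went from 7 to 421 counts in WT, 1 to 319 in KO22 and 1 to 317 in N22.

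The Xlr5 genes had the lowest counts. Xlr5a had 0 in every library without GSK, then 11 and 18 in WT, 4 and 1 in KO22 and 8 and 25 in N22, at least 10.2-fold and 11.7-fold higher in WT and N22 (adjusted p = 4.47e-05 and 2.04e-05). With 5 counts in KO22 its edgeR adjusted p was 0.073, and none of the alternatives run called it there. Xlr5b had 0 without GSK, then 20 and 14, 5 and 11, and 10 and 10, at least 11.9-fold, 5.30-fold and 7.08-fold higher (adjusted p = 8.56e-06, 0.00128 and 0.000269). Xlr5c went from 0 and 1 counts to 36 and 44 in WT (ratio 84.1, 14.7 to 3363), from 0 to 23 and 18 in KO22 and from 0 to 21 and 23 in N22, at least 13.6-fold and 15.6-fold (adjusted p between 1.94e-09 and 4.38e-07).

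Other measures moved with the compound as well. The mitochondrial share of counts was 1.65% to 2.39% with DMSO and 2.66% to 3.20% with GSK. The summed CPM of 4 germ cell markers (Ddx4, Dazl, Sycp3 and Mael) was 34.8 to 47.4 with DMSO and 60.4 to 104 with GSK, with all 4 detected. Within this sum Sycp3 went the other way, from 7.22 to 1.64 CPM in WT, 3.03 to 1.33 in KO22 and 4.76 to 2.60 in N22. Summed CPM of 5 primitive endoderm markers was 4.48 to 8.23 and 8.23 to 15.9. That of 5 trophoblast markers was 14.1 to 16.9 and 17.8 to 19.4, where Elf5 was at 0 with DMSO. The part of these measures in the rise of the Xlr genes was not tested. Summed CPM of 7 lymphocyte markers was 6.13 to 8.79 with DMSO and 4.30 to 6.54 with GSK, and 7 fibroblast markers, which would mark feeder cells, were at 19.1 to 42.1 and 21.5 to 38.3. In bulk RNA, fewer expressing cells and less RNA per cell cannot be told apart.

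On a scale per length (RPKM, the CPM divided by the length of the gene model in kb), Xlr3c had the highest level with GSK in all 3 genotypes, at 5.88 ± 0.117 in WT, 4.64 ± 0.134 in KO22 and 7.15 ± 0.432 in N22 (SD, n = 2). In WT Xlr4a was second at 2.97 ± 0.153, followed by Xlr3a and Xlr3b at 2.68 ± 0.015 and 2.56 ± 0.222, which overlapped. The gene models of Xlr3a and Xlr3b, at 4045 and 3780 exon bases, are longer than that of Xlr3c (1584), which lowers their RPKM, so this order depends on the annotation. Countable sequence differed as well, since reads that map to several places were dropped. Windows of 100 bases found in no other gene made up 53.3% to 75.6% in Xlr3, 40.1% to 62% in Xlr4 and 18.7% to 33.3% in Xlr5. Its part in the order of copies and subfamilies was not tested. Xlr4c (1.64 ± 0.123) and Xlr4b (1.28 ± 0.193) were lower than these in WT. Xlr5b (0.533 ± 0.138) and Xlr5a (0.429 ± 0.143) were lowest in WT and did not differ beyond their spread. In KO22 and N22 the last places were also held by Xlr5a and Xlr5b.

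With DMSO the Xlr3 genes had 43 counts in WT, 38 in KO22 and 39 in N22, but the copies that gave these counts differed. Xlr3c made up 6.98% of them in WT (3 of 43, exact 95% interval 1.46% to 19.1%), 43.6% in N22 (17 of 39, 27.8% to 60.4%) and 94.7% in KO22 (36 of 38, 82.3% to 99.4%). By library the share was 0% and 10.0% in WT and 94.1% and 95.2% in KO22, so these groups did not overlap. With GSK the shares were 31.2% (28.5% to 34.1%), 40.7% (37.6% to 43.8%) and 39.1% (35.5% to 42.9%) in WT, N22 and KO22.

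**Figure D3:**
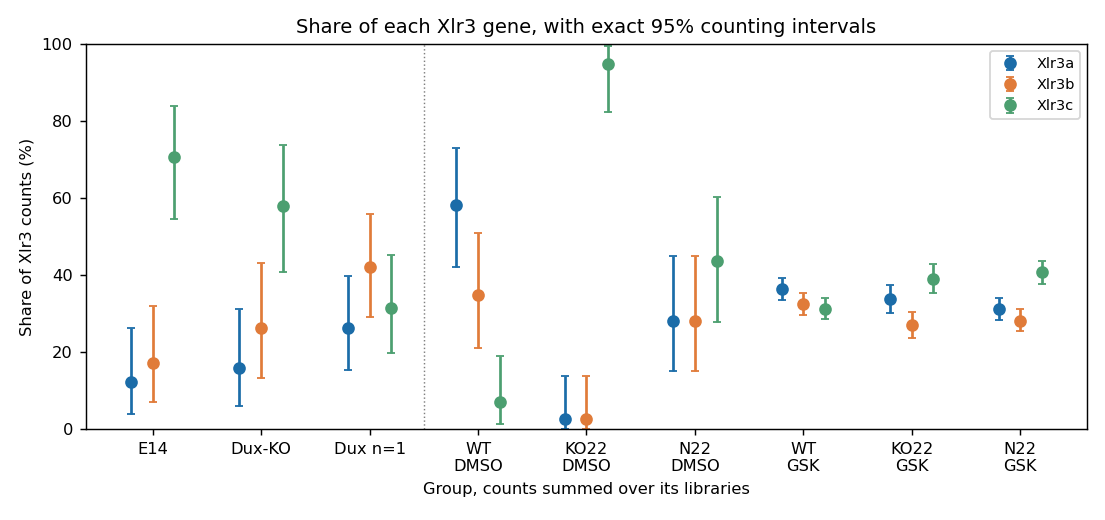
Share of the Xlr3 counts taken by Xlr3a, Xlr3b and Xlr3c (y axis, percent) by group (x axis), with counts summed over the libraries of a group and bars for the exact 95% counting interval. Xlr3c runs from 6.98% in WT to 94.7% in KO22 with DMSO, and between 31.2% and 40.7% in the GSK groups.

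In the test between genotypes with DMSO, Xlr3c was higher in KO22 than in WT, with 36 against 3 counts (ratio 12.4, 3.91 to 62.8; edgeR adjusted p = 1.97e-06). Xlr3a was lower, with 1 against 25 counts (ratio 0.0413, 0.00101 to 0.252; adjusted p = 1.54e-05), and so was Xlr3b, with 1 against 15 (ratio 0.0688, 0.00163 to 0.447; adjusted p = 0.0017). Without the library WT DMSO 2 the call on Xlr3b was lost (adjusted p = 0.174), while those on Xlr3a and Xlr3c held under each alternative. Xlr4b was called lower on 0 against 4 counts (adjusted p = 0.0492), a call that was lost under 8 of the alternatives, DESeq2 (adjusted p = 0.0979) and the omission of any of the 4 libraries among them. Of all tested genes, 23.4% were called higher and 28.5% lower in this comparison.

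Xlr3c was higher with DMSO in N22 than in WT (17 against 3 counts, ratio 5.85, 1.69 to 31.2; adjusted p = 0.00904), where 11.5% of all genes were called higher. That call was lost without N22 DMSO 2 (adjusted p = 0.152) or WT DMSO 1 (0.179). Xlr3a (11 against 25 counts, adjusted p = 0.105) and Xlr3b (11 against 15, adjusted p = 0.691) were not called between N22 and WT. Against KO22, Xlr3a and Xlr3b were called higher in N22, each with 11 counts against 1 (adjusted p = 0.0099 and 0.0126; 21.1% of all genes), and Xlr3c lower (17 against 36; adjusted p = 0.0413; 18% of all genes). DESeq2 called none of these 3 (adjusted p = 0.0686, 0.0702 and 0.0768). Each was also lost without some single library: Xlr3a without KO22 DMSO 1 (0.108) or N22 DMSO 1 (0.41), Xlr3b without KO22 DMSO 2 (0.144) or N22 DMSO 2 (0.217), and Xlr3c without KO22 DMSO 1 (0.0693), KO22 DMSO 2 (0.182) or N22 DMSO 1 (0.302).

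The untreated clones that carry the same numbers gave other shares. Xlr3c held 42.1% of the Xlr3 counts in the library labelled Dux-KO clone 22 (8 of 19, 20.3% to 66.5%), 57.9% over the Dux-KO group, 31.6% over the Dux (n=1) clones and 70.7% over E14 (29 of 41, 54.5% to 83.9%), the untreated unedited line. Whether KO22 is the cell clone of that library, and WT the E14 line, is not stated in the labels, and values of the 2 sets were not tested against each other.

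The difference between the responses was tested as an interaction. For Xlr3c the log2 response of KO22 was lower than that of WT by 3.81 ± 0.64 (edgeR adjusted p = 2.26e-06; 13.5% of all genes called lower), while for Xlr3a (adjusted p = 0.00167) and Xlr3b (0.0448) that of KO22 was higher (18.3%). The Xlr3b call was lost with DESeq2 (adjusted p = 0.158), without the filter (0.0643), and without KO22 DMSO 1 (0.0501), KO22 DMSO 2 (0.296), WT DMSO 2 (0.483), WT GSK 1 (0.0691) or KO22 GSK 1 (0.0752). The response of Xlr3c was higher in N22 than in KO22 by 1.66 ± 0.46 (adjusted p = 0.00561; 7.81% of all genes), which was lost without KO22 DMSO 2 (0.0522) or N22 DMSO 1 (0.0784). Between N22 and WT, where 11.1% of all genes were called, 0 members were called by edgeR or DESeq2, with 1, Xlr3c, at an unadjusted p below 0.05 in each. DESeq2 gave an adjusted p to only 3 of the 9 there. Of 29256 genes fitted, it called 445 higher and 556 lower. These tests share the DMSO counts described above, and members without a count in both DMSO groups gave no interaction.

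With GSK the family was lower in KO22 than in WT. The ratio of summed CPM was 0.64 (0.592 to 0.691) in KO22 against WT, 0.876 (0.814 to 0.941) in N22 against WT and 1.37 (1.26 to 1.48) in N22 against KO22. None of these groups overlapped, but groups of so few libraries are easily separated. The share of all genes separated in this way was not counted. By subfamily, KO22 against WT gave 0.63 for Xlr3, 0.74 for Xlr4 and 0.423 for Xlr5. Xlr3a was lower in KO22 by 0.74 ± 0.18 on the log2 scale (238 against 397 counts; adjusted p = 0.00124) and Xlr3b by 0.89 ± 0.20 (191 against 354; adjusted p = 0.000454).

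Xlr5a was lower in KO22 with 5 against 29 counts (log2 difference -2.48 ± 0.81; adjusted p = 0.0187), a call lost without WT GSK 2 (0.184) or KO22 GSK 2 (0.23). Together these were 3 of 9 members called lower, against 10.1% of all tested genes. The other 6 were not called: Xlr3c (log2 difference -0.31 ± 0.17), Xlr4a (-0.67 ± 0.28), Xlr4b (-0.05 ± 0.29), Xlr4c (-0.45 ± 0.31), Xlr5b (-1.08 ± 0.62) and Xlr5c (-0.96 ± 0.43). A fit of these 2 groups alone called Xlr4a (adjusted p = 0.0231) and Xlr5c (0.0365) as well, and 5 members in all. In that fit 1641 of 15605 genes were called lower.

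N22 with GSK was not separated from WT for single members. 0 of 9 were called by edgeR (9.65% of all genes), with 1, Xlr4a, at an unadjusted p below 0.05 (108 against 167 counts). DESeq2 also called 0, but gave an adjusted p to only 2 of the 9. Of 29256 genes fitted, it called 445 higher and 391 lower. In the edgeR fit, intervals were as follows. The 95% interval of the log2 difference ran from -0.66 to 0.03 for Xlr3a, from -0.67 to 0.09 for Xlr3b and from -0.03 to 0.62 for Xlr3c. Against KO22, N22 was called higher in Xlr3b (by 0.60 ± 0.21; adjusted p = 0.0234), Xlr3c (by 0.60 ± 0.17; 0.00538) and Xlr5a (33 against 5 counts; 0.00675), where 11.7% of all genes were called higher. Each of these calls was lost with 1 library left out: Xlr3b without KO22 GSK 2 (0.227), N22 GSK 1 (0.0999) or N22 GSK 2 (0.0753), Xlr3c without KO22 GSK 1 (0.0565) or N22 GSK 1 (0.0683), and Xlr5a without KO22 GSK 2 (0.141) or N22 GSK 2 (0.299). DESeq2 called 0, with 3 at an unadjusted p below 0.05, but gave an adjusted p to only 7 of the 9 members. Of 29256 genes fitted, it called 1233 higher and 1340 lower in N22 than in KO22.

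The genes beside the cluster did not all rise. Within 500 kb of it, 28 other protein-coding genes are annotated and 19 were tested in the treated set. Of these, 4, 5 and 6 were called higher in WT, KO22 and N22, where 28.7%, 24.8% and 26.9% of all genes were. In each, 5 were called lower, against 28.1%, 21.2% and 26% of all genes. The neighbours' counts lie near those shares. Median log2 differences of the neighbours were -0.05, 0.14 and 0.00. Pnma5, of a retrotransposon-derived family and just before the cluster, went from 146 and 126 counts in WT to 987 and 976. It rose by 2.86 ± 0.09 in WT, 4.50 ± 0.11 in KO22 and 4.05 ± 0.11 in N22 (adjusted p = 1.6e-37, 5.58e-45 and 1.09e-41). The gene model Gm18336, 322.1 kb after the cluster's first base, rose by 2.29 ± 0.13, 2.37 ± 0.15 and 2.06 ± 0.14.

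F8a, which encodes the huntingtin-associated protein HAP40, lies inside the cluster between Xlr4b and Xlr4c and was detected in all groups. It went from 70 and 55 counts to 80 and 110 in WT (log2 difference 0.61 ± 0.21), 53 and 42 then 119 and 113 in KO22 (1.26 ± 0.22) and 46 and 41 then 116 and 132 in N22 (1.55 ± 0.22). The WT call (adjusted p = 0.0112) was lost with DESeq2 (0.0723) and without WT DMSO 2 (0.156) or WT GSK 2 (0.236). Nsdhl, a sterol dehydrogenase of cholesterol synthesis on the near side of the cluster, fell by 1.10 ± 0.08, 0.84 ± 0.08 and 1.02 ± 0.08 on the log2 scale.

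**Figure D4:**
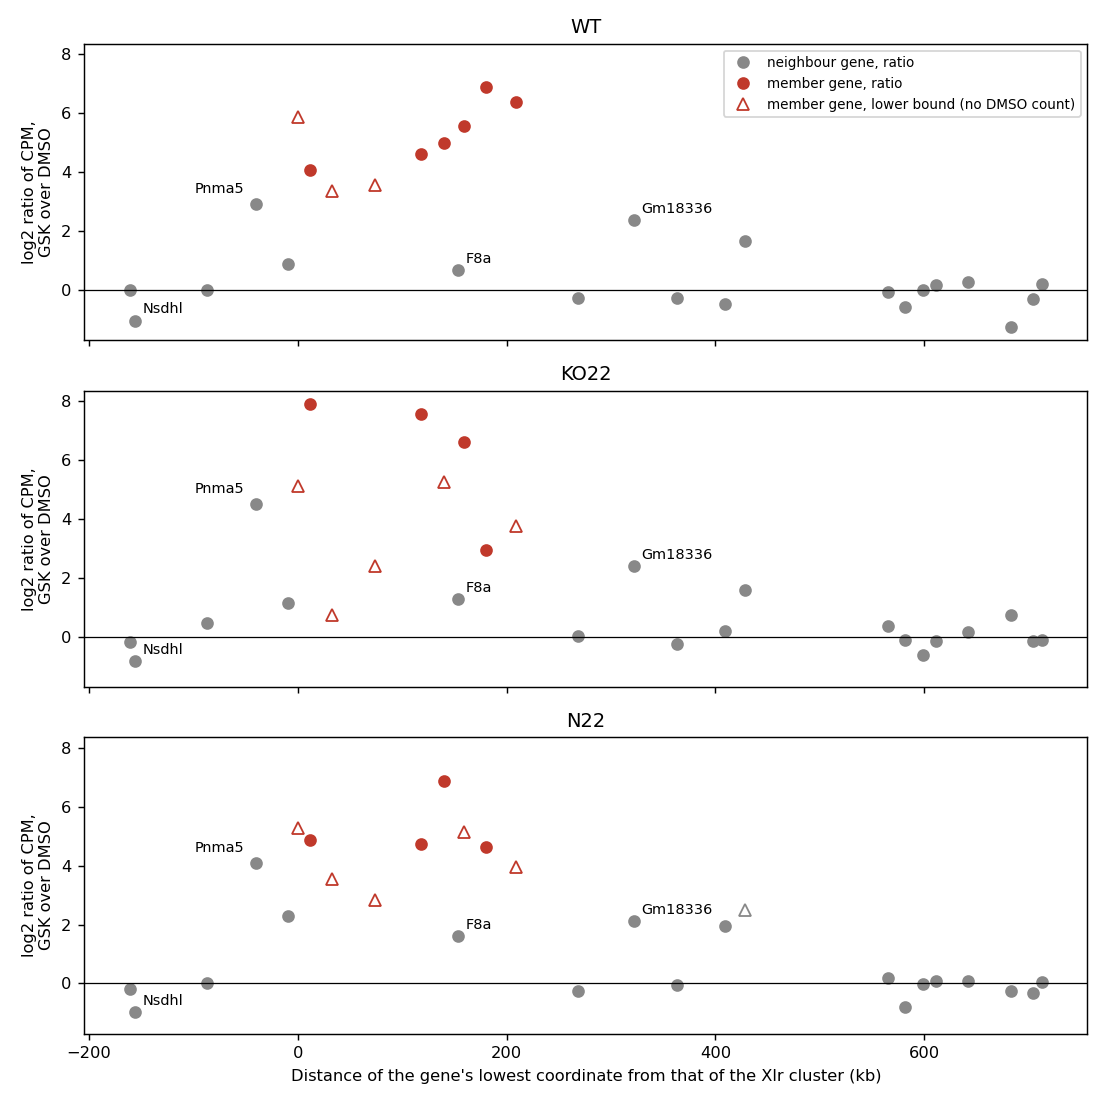
Log2 ratio of CPM, GSK over DMSO, from counts summed over the 2 libraries of a group (y axis), against the distance of each tested gene's lowest coordinate from that of the cluster (x axis, kb), in a panel per genotype; red marks the 9 Xlr genes, grey the neighbours, and open triangles are lower bounds for genes with no DMSO count. In WT the 9 Xlr genes lie above every neighbour in the panel, and Pnma5 is the highest neighbour in WT and KO22.

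Genes listed as relatives of the family or partners of Sycp3 behaved in several ways. Xlr, the founding member of the family, had 0 to 4 counts without GSK and 3 to 9 in each GSK library, too few for the filter. Slx and Slxl1, the X-linked relatives of elongating spermatids, had 0 counts in every library. Sycp3 itself fell: it went from 134 and 144 counts in WT to 28 and 32 (log2 difference -2.20 ± 0.24; adjusted p = 3.09e-12), 57 and 56 then 21 and 29 in KO22 (-1.19 ± 0.28; 0.000272), and 103 and 74 then 45 and 46 in N22 (-0.92 ± 0.24; 0.000698). The N22 call was lost without N22 DMSO 1 (0.0656). The list of 12 also held Sycp1, Sycp2 and gene models named as pseudogenes of Xlr3, Xlr4 and Xlr5. Only 3 were tested, namely Sycp1, Sycp2 and Sycp3. Sycp2, a partner of Sycp3 in the chromosome axis, was the only one called higher, in N22 (1.34 ± 0.43, edgeR adjusted p = 0.0074), where 26.9% of all genes were.

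Other X-linked genes of testis and placenta rose in the same libraries. Over all genes, 28.7%, 24.8% and 26.9% were called higher in WT, KO22 and N22, and 28.1%, 21.2% and 26% lower. Of the 24 X-linked genes listed, 16 were tested, and 15 were called higher in each response, with 0, 0 and 1 called lower. Their median log2 differences were 2.80, 3.20 and 3.96 in WT, KO22 and N22, or 2.87, 2.65 and 3.13 from summed counts with the 3 to 4 genes that had a group without counts at their bound. Rhox5, a homeobox gene of testis and placenta, rose by 1.39 ± 0.08, 2.56 ± 0.09 and 2.67 ± 0.10, Usp26, a testis deubiquitinase, by 2.70 ± 0.16, 4.47 ± 0.20 and 4.16 ± 0.19, and Nxf3, an RNA export factor, by 4.85 ± 0.30, 4.54 ± 0.34 and 5.13 ± 0.31. Tex11, a meiotic recombination gene, was the gene called lower in N22 (log2 difference -0.59). The filter acts on this list as on the Xlr genes.

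Factors that set or read DNA methylation and silent chromatin were expressed in all groups, and 18 of 18 were tested. In WT, KO22 and N22, 7, 6 and 4 were called higher and 8, 9 and 9 lower, with median log2 differences of 0.00, -0.07 and -0.12. Over all genes, 28.7%, 24.8% and 26.9% were called higher and 28.1%, 21.2% and 26% lower. Dnmt3l, the catalytically inactive partner of the de novo methyltransferases, rose by 1.51 ± 0.04, 0.64 ± 0.03 and 1.29 ± 0.04. Cdca7, a partner of the chromatin remodeller Hells, fell by 0.80 ± 0.04, 0.44 ± 0.04 and 0.79 ± 0.04, and Tet1, a methylcytosine dioxygenase, by 0.55 ± 0.03 in WT and 0.39 ± 0.03 in N22. In KO22 the Tet1 difference of -0.09 ± 0.03 was called (adjusted p = 0.0239) but lost without KO22 DMSO 1 (0.0669), KO22 DMSO 2 (0.116) or KO22 GSK 1 (0.529).

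The genes whose levels followed the summed Xlr level most closely over the 12 treated libraries were Smtnl1 (Pearson r = 0.996 of log2 CPM + 1), Mlana (0.995), Dcdc2a (0.995), Sulf2 (0.994) and Peg13 (0.994), of 11470 candidates. Smtnl1, a smooth muscle contraction regulator, was at 1.51, 1.59 and 1.63 CPM with DMSO in WT, KO22 and N22 and at 26.2, 22.2 and 28.4 with GSK. Peg13, an imprinted noncoding RNA, went from 0.103 CPM in WT and 0 in KO22 and N22 to 7.24, 7.24 and 7.60. The libraries fall into a DMSO and a GSK cluster, which sets most of these correlations, and they are given as a description.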

How the data were processed

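RNA sequencing libraries were made from 1 ug of total RNA with a VAHTS Universal V6 kit, per the labels' protocols. Trimming with fastp 0.23.2, alignment with HISAT2 2.1.0 and counting with featureCounts 2.0.1 on GRCm38, with DESeq2 1.40.2, are listed per the submitters' processing notes. Each deposited table holds raw counts of a library per gene, not normalized, with paired reads in 22 of 22 files and multi-mapping and strand options in 0, per the file headers. Read length is not given in the sources used here. Antisense and overlapping genes cannot be told apart without strand.

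The 9 members, the other gene lists and the tests were chosen with earlier results of these data known. Counts were tested in R 4.3.3 by the robust quasi-likelihood test of edgeR 4.0.16 after filterByExpr (minimum count 10) and TMM scaling, with the untreated and treated sets each in 1 fit, and Benjamini-Hochberg adjusted over all genes. The common biological coefficient of variation was 0.208 and 0.0435. Log2 differences carry the standard error (SE), and ratios an exact 95% counting interval. A group with 0 counts was set to 3 counts over the group. The tests were checked on simulated counts, with changes placed only in genes well covered in all groups. That check does not cover genes near 0 counts in a group, such as the Xlr members with DMSO. No replicate pair held identical values. All members were named; from the other lists, up to 3 called genes with the smallest p in WT, and any gene a result turns on (F8a, Sycp2, Sycp3, Tex11, Xlr, Slx and Slxl1 are named so or were chosen after their values were seen), and the 5 genes most correlated with the summed level. As alternatives, DESeq2 1.42.0, fits without a filter, with RLE factors, with a replicate block or of only 2 groups, other scales for the sum, and the omission of each library were run.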

Additional observations from a re-analysis of the deposited data

Results flagged for a closer look

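In 1 of the 4 Dux (n=1) clones a gene lay far from the other 3, which were at 0: Xlr4b at 0.105 CPM and Xlr4c at 0.0527 CPM in clone 22, and Xlr5c at 0.0605 CPM in clone 17, which also sets the summed Xlr5 level at 0.0605 CPM. Each rests on 1 or 2 counts. A single count in a group always sets 1 library apart from the rest, so these marks say little about the clones. The summed Xlr5 value is the same count as that of Xlr5c, and 11 values were looked at.

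The response to GSK differed between KO22 and WT for Xlr3a (interaction of 3.57 on the log2 scale), Xlr3b (2.69) and Xlr3c (-3.81), and between N22 and KO22 for Xlr3c (1.66). The values of Xlr3a and Xlr3b rest on 1 count each over the KO22 DMSO libraries.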

How the results depend on the processing

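The 9, 8 and 9 members called higher with GSK in WT, KO22 and N22 became 9, 7 and 7 in fits of the compared groups alone, where Xlr5a and Xlr5b did not pass the filter in KO22 and N22, and kept their number under the other alternatives run. The ratio of the summed CPM became 265 in KO22 and 45.7 in N22 when Xlr3c was left out of the sum, since only 3 of the 39 KO22 DMSO counts are not from Xlr3c; with libraries left out it ranged from 24.4 to 57.5 in WT, 26.6 to 28.9 in KO22 and 35.7 to 38.2 in N22.

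Counts of members in the other comparisons moved as follows. Members that did not pass the filter in fits of the compared groups are named, and other causes were not tested. With DESeq2, members with a higher response in KO22 than in WT went from 2 to 1, and those higher in N22 than in KO22 from 2 to 0 with DMSO and from 3 to 0 with GSK; those lower in N22 with DMSO went from 1 to 0. Without the filter on low counts, the first of these was 1 and the last 0. Over the 29256 genes of each fit, DESeq2 called 1830, 2513, 1233 and 2265 in the order given. The fit without the filter called 2498 and 3048 for the first and the last. In fits of the compared groups alone, members lower in KO22 than in WT went from 3 to 1 with DMSO and from 3 to 5 with GSK. Over all genes, 4304 of 15115 and 1641 of 15605 were called lower. Members higher and lower in N22 than in KO22 with DMSO went to 0 and 0, where 3405 and 3245 of 14948 genes were called. With DMSO, Xlr3b and Xlr4b in KO22 against WT did not pass the filter of these fits. Nor did Xlr3a and Xlr3b in N22 against KO22. Xlr3c was tested there and not called (edgeR adjusted p = 0.0879).

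Leaving out libraries gave, for the response of KO22 against WT, 1 to 2 members higher; for N22 against WT, 0 to 1 lower; for N22 against KO22, 0 to 1 higher and 0 to 1 lower. With DMSO it gave 1 to 2 lower in KO22 than in WT, 0 to 1 higher and 0 to 1 lower in N22 than in WT, and in N22 against KO22 1 higher in each omission and 0 to 1 lower. With GSK it gave 1 to 2 higher in N22 than in KO22. Directions turned for Xlr4b in KO22 against WT with GSK (-0.20 to 0.11, above 0 without WT GSK 1), and, without N22 DMSO 1 or WT DMSO 2, for Xlr3b in N22 against WT, both with DMSO (-1.22 to 0.88; 0.11 without N22 DMSO 1) and as a response (-1.17 to 0.93; -0.40 without N22 DMSO 1).

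Replicate numbers did not pair the libraries: over 15 pairs of treated groups, same-numbered libraries had correlations of -0.017 to 0.029. With the replicate number as a block, 9, 8 and 9 members were called higher with GSK, and Xlr4b in KO22 against WT with DMSO lost its call (log2 difference -4.06, adjusted p = 0.0522), leaving 2 lower members there. The untreated clones carry numbers with no shared meaning, and no block was fitted there.

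With 2 libraries a group and DMSO counts of 0 to 20 a member, genotype differences with DMSO rest on few reads.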
